A study of Mus musculus with 20 samples.

Results

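The chemokine genes of whole mouse kidney were compared between mice given phosphate-buffered saline (PBS) and mice given puberulic acid, a tropolone compound made by some moulds. Chemokine genes were taken as every gene whose symbol starts with Ccl or Cxcl followed by a digit, together with Cx3cl1 and Xcl1. That rule found 39 of the 55822 genes in the table, 3 of them listed by RefSeq as pseudogenes (Ccl19-ps1, Ccl19-ps3 and Cxcl11), and 27 of the 39 were abundant enough to be tested. All 10 samples came from male mice of the inbred strain C57BL/6J, aged 8 weeks. The 5 controls received PBS, and the 5 puberulic acid samples, called treated samples below, came from mice given 1 mg per day. Dosing ran once a day for 6 days, and kidneys were taken on day 7. The series text calls the dosing oral, whereas the protocol allows gavage or peritoneal injection, so no route is given here for single mice. Groups given a normal or a toxic lot of the supplement Choleste-Help were not analysed here. The labels number the samples of a group without saying that each is a separate mouse, so p-values measure the spread between these samples.

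Chemokines are small secreted proteins that direct the movement of leukocytes. They are grouped as CC, CXC, CX3C and C by the spacing of conserved cysteines near the amino terminus, and they act through G-protein-coupled receptors. Inflammatory chemokines are made on demand by injured epithelium, stroma and leukocytes. Homeostatic chemokines are made steadily and set the place of lymphocytes and stem cells. In kidney, injured tubule cells are a known source of the former. Whole-kidney RNA mixes all of these cells, so fewer cells of a type and less RNA per cell cannot be told apart.

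The libraries held 18409877 to 24705587 counts each, and values are given as CPM, counts scaled to a common library size, after correction for library composition (TMM). CPM is not divided by gene length, so levels are compared between samples and not between genes. The scaling factors were 0.827 to 0.848 in controls and 1.17 to 1.26 in puberulic acid samples. With scaling to total counts instead, the median change over every tested gene moved (log2) from 0.05 to 0.56, and the share of calls that were higher moved from 52.4% to 78.4%. The kidney label was matched by its markers, which were present in every sample, although 8 of 10 were lower with puberulic acid, Slc34a1 (the proximal tubule phosphate carrier) from a mean of 4803 to 117 CPM. With total counts 5 of these 10 were lower and 1 higher. Control 1 stood apart from the other controls in 26 interferon-induced genes, each of which was highest there among the controls. The summed level of those genes was 2073 CPM in control 1 and 206.6 to 254 CPM in controls 2 to 5. In puberulic acid 3, the summed adipocyte markers reached 211 CPM against 3.53 to 6.89 CPM in the other puberulic acid samples, and the adrenal cortex markers reached 49.6 CPM against 1.49 to 3.25 CPM. For some results that lean on these libraries, values without them are also given.

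All 27 tested chemokine genes differed between the groups, 22 of them higher and 5 lower with puberulic acid (edgeR's quasi-likelihood test, Benjamini-Hochberg adjusted p under 0.05). Over all 16266 genes tested, 65.3% passed in either direction, 34.2% higher and 31.1% lower. The median log2 fold change was 3.45 over the tested chemokine genes and 0.05 over all genes tested. Of the 27, 14 reached the minimum for testing only with the help of the puberulic acid samples, the group where they were higher, so their count supports nothing by itself. The other 13 passed from the control samples alone, and of these 8 were higher and 5 lower, with a median log2 fold change of 1.2. The group ranges did not overlap for 22 of the 27, beside 50.1% of all genes tested, and these 22 include most of the 14. The fitted rise was at least 16-fold for 12 genes, all of them among the 14, and under 4-fold for 6. These counts therefore support nothing by themselves either. Without control 1 the count was 23 higher and 4 lower, with control 1 and puberulic acid 1 both left out it was 24 and 4, and without puberulic acid 3 it was 21 and 4. With scaling to total counts it was 22 higher and 2 lower. Below, a value given as ± SE is a log2 fold change of treated against control samples.

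**Figure D1:**
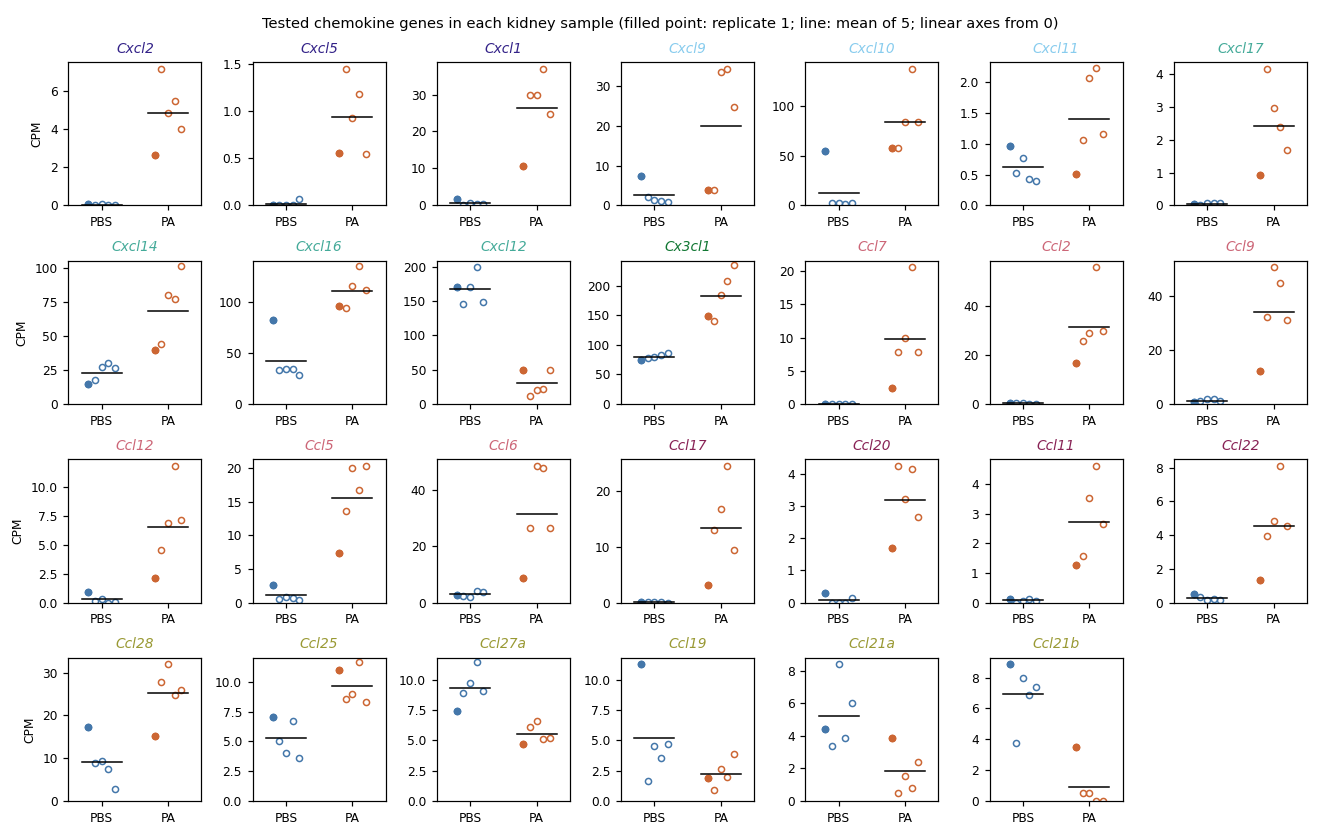
Level of each of the 27 tested chemokine genes in every sample, in CPM on linear axes that start at 0 (PBS, control; PA, puberulic acid; filled point, replicate 1; line, mean of 5 samples). The puberulic acid points lie wholly above the control points for 19 genes and wholly below them for 3.

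The 3 tested CXC chemokines that carry a Glu-Leu-Arg (ELR) motif, a group that draws neutrophils through Cxcr2, went from near 0 in controls to clear levels in every puberulic acid sample. Cxcl1 (ENSMUSG00000029380) was 1.83, 0.105, 0.700, 0.498 and 0.455 CPM in controls 1 to 5 and 10.5, 29.8, 29.7, 37.0 and 24.8 CPM in treated samples 1 to 5. Control 1 was the highest control and puberulic acid 1 the lowest treated sample, and the groups did not overlap. The mean went from 0.717 ± 0.656 to 26.4 ± 9.85 CPM (SD, n = 5 a group), a log2 fold change of 5.19 ± 0.52 (SE) with adjusted p = 3.8e-06, and 5.92 without control 1. Cxcl2 (ENSMUSG00000058427) had a count of 1, 0, 1, 0 and 0 in the controls and 2.63, 7.16, 4.83, 5.46 and 4.02 CPM in the treated samples. With so few control counts the size of its rise is known only within wide counting error: the ratio of the groups was 197, with a 95% counting interval of 54.4 to 1630, and the adjusted p was 3.93e-07. Cxcl5 (ENSMUSG00000029371), the remaining tested gene of this kind, had 1 count over all controls and 0.557, 1.45, 0.932, 1.18 and 0.546 CPM in the treated samples. Its ratio was 75.5 (13.3 to 3010), with adjusted p = 1.86e-05. Cxcl3 was at 0 in all controls and reached a mean of 0.436 CPM in treated samples, at least 2.42-fold above the limit that 3 counts per control library allow, and was too low to be tested. Cxcl15 was near 0 throughout. Beside these genes, the summed neutrophil markers were 0.527 to 1.77 CPM in controls and 2.13 to 5.00 CPM in treated samples. Of 10 markers 2 were tested and 1 of these (Csf3r, log2 fold change 1.66) was higher, beside 34.2% of all genes tested. Csf3r passed the minimum only through the treated samples. Ly6g and Elane were at 0 in every sample. Retnlg, Mpo and Ngp were at 0 in all controls but not in all treated samples. The part of neutrophil number in the rise of their ligands was not tested.

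The promoters of Cxcl1 and Cxcl2 are shown because both genes rose from near 0 and both windows hold letters that resemble a site for NF-kappaB, the transcription factor of many inflammatory genes. Each line gives 250 bases before to 50 after the transcription start from RefSeq (GRCm38.p6), 5′ to 3′ on the gene's strand, with matches in capitals. Cxcl1 lies at chr5:90890995-90891294 and Cxcl2 at chr5:90903649-90903948, both on the plus strand. The build of these windows is that of the sequence table and not the GRCm39 named for the counts.
Cxcl1: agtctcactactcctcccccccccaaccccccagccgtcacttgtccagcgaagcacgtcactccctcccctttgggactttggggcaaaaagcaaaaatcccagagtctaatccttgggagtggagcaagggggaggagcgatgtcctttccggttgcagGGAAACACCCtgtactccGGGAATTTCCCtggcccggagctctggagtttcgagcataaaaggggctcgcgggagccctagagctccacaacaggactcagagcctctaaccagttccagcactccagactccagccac
Cxcl2: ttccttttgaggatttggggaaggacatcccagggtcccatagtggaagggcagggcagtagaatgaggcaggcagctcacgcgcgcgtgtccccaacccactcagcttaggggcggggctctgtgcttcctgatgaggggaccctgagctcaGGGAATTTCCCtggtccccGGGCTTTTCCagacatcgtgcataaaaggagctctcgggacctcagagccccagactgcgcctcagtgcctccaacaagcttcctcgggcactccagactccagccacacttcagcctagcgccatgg
The motif searched was GGGNNNTTCC on both strands. In Cxcl1 its matches begin 89, 71 and 70 bases before the start, and in Cxcl2 they begin 97, 96 and 78 bases before it. The pair at 71 and 70 in Cxcl1, and the pair at 97 and 96 in Cxcl2, overlap, and each pair holds a match on the plus strand and a match on the minus strand. Of the 26 chemokine genes with a window in the table, 7 held a match (Ccl20, Cxcl3, Cxcl1, Cxcl2, Cxcl10, Ccl1 and Ccl9), as did 5.52% of 27025 windows of all genes. Among members with a window, a match was present for 5 of 14 called higher and 0 of 5 called lower. These matches describe letters and say nothing of binding in these kidneys.

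The ligands of Cxcr3, which draw activated T and NK cells and are induced by interferons, were higher with puberulic acid, with wide spread among the samples of each group. Cxcl10 (ENSMUSG00000034855) was 55.4, 2.74, 2.80, 1.93 and 2.21 CPM in controls and 57.4, 58.1, 84.1, 138 and 84.5 CPM in treated samples. Control 1 stood 22.9-fold above the mean of the other controls and lay just under the lowest treated sample. Its log2 fold change was 2.69 ± 0.89 (SE), adjusted p = 0.0186, and without control 1 it was 5.10 (adjusted p = 2.74e-07). Cxcl9 (ENSMUSG00000029417) was 7.42, 2.06, 1.34, 0.997 and 0.779 CPM in controls and 3.90, 3.83, 33.5, 34.4 and 24.6 CPM in treated samples. Treated samples 3 to 5 were high, whereas treated samples 1 and 2 lay below control 1, so the groups overlapped. The change was 2.98 ± 0.78 (SE; adjusted p = 0.00511), and 3.92 without control 1. Cxcl11 (ENSMUSG00000060183), listed by RefSeq as a transcribed pseudogene, was 0.970, 0.527, 0.764, 0.436 and 0.390 CPM in controls and 0.520, 1.06, 2.08, 2.24 and 1.16 CPM in treated samples. Its groups overlapped, and its call (log2 fold change 1.18 ± 0.42 SE, adjusted p = 0.0265) ended when any of controls 2, 4 or 5 or treated samples 3 or 4 was left out, with adjusted p up to 0.0836.

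These levels moved beside the interferon-induced list. That list's summed level was 2073, 206.6, 254, 208 and 211 CPM in controls 1 to 5 and 486, 846, 1261, 1824 and 1017 CPM in treated samples 1 to 5. Of its 26 tested genes, 15 were higher, 0 lower and 11 not called, beside 34.2% higher and 31.1% lower over all genes tested, and without control 1 all 26 were called higher. Control 1 was also the highest control for 15 of the 27 tested chemokine genes. The part of the interferon genes in the chemokine levels of control 1 was not tested.

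**Figure D2:**
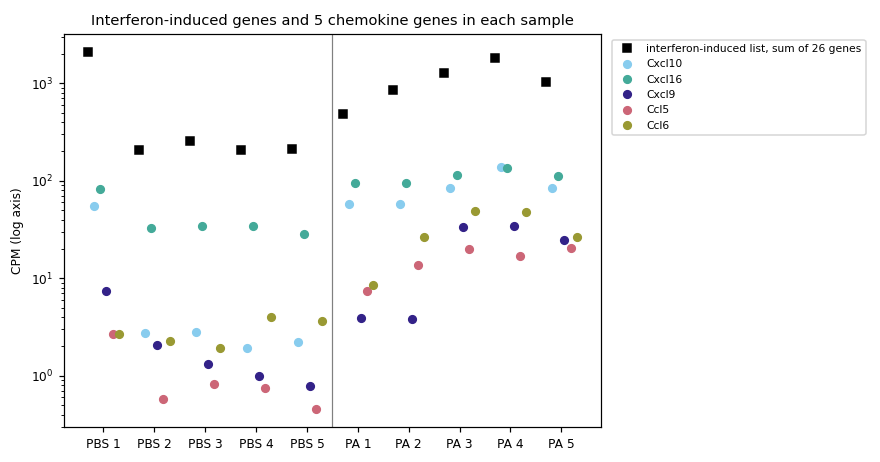
Summed level of 26 interferon-induced genes (squares) and level of 5 chemokine genes (circles) in each sample, in CPM on a log axis (PBS, control; PA, puberulic acid). In control 1 the interferon sum, Cxcl10, Cxcl16, Cxcl9 and Ccl5 are above controls 2 to 5, whereas Ccl6 is within their range.

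The promoter windows of Cxcl10 and Cxcl9, which lie next to each other on chromosome 5, are shown because these genes carry the contrast between control 1 and the other controls. Cxcl10 lies at chr5:92348840-92349139 and Cxcl9 at chr5:92328030-92328329, both on the minus strand of GRCm38.p6, and the sequences are RefSeq's, written 5′ to 3′ on the gene's strand. Capitals mark matches to GGGNNNTTCC, to the letters GAAANNGAAA that resemble an interferon-stimulated response element, or to TGANTCA, which resembles an AP-1 site, each searched on both strands.
Cxcl10: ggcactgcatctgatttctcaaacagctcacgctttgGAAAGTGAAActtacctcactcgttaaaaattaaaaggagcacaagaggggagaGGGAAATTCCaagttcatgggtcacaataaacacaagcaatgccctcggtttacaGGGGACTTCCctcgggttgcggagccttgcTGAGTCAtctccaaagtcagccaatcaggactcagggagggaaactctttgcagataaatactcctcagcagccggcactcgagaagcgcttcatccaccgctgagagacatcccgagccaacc
Cxcl9: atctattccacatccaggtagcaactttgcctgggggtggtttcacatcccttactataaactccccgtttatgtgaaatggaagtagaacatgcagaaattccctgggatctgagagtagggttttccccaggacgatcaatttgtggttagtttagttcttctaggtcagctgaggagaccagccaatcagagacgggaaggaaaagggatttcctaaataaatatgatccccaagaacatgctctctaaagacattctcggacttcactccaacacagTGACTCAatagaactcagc
The Cxcl10 window holds an interferon-element-like match 213 bases before the start, NF-kappaB-like matches 159 and 104 bases before it, and an AP-1-like match 74 bases before it. None of these overlap. The Cxcl9 window holds only an AP-1-like match, 31 bases after the start. The interferon-element-like letters were found in 3.49% of all windows and in those of 3 members (Ccl19, Cxcl10 and Cxcl14), and the AP-1-like letters in 7.93% and in those of 4 (Cxcl9, Cxcl10, Ccl9 and Ccl28). These counts use the window listed first for each gene, and another window of Ccl27a also holds the AP-1-like letters.

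The other CXC genes moved in both directions. Cxcl12 (ENSMUSG00000061353), a homeostatic chemokine that retains stem cells and lymphocytes through Cxcr4, was the only CXC gene that fell. It stood at 170.3, 146, 170.2, 199.7 and 148 CPM in controls and 50.03, 11.3, 20.2, 21.4 and 49.0 CPM in treated samples. Every treated sample was below every control, and treated samples 1 and 5 kept the most. The mean was 5.48-fold lower, a log2 fold change of -2.45 ± 0.36 (SE) with adjusted p = 7.66e-05, and it was -1.93 with scaling to total counts. Endothelial and stromal cells are known sources of Cxcl12, so their markers are set beside it. The summed endothelial markers were 192 to 316 CPM in controls and 107 to 267 CPM in treated samples, with 1 of 6 called lower (Kdr, log2 fold change -0.83), 0 of 6 with scaling to total counts and 2 of 6 without control 1. The fibroblast and pericyte markers went the other way, from 108 to 158 CPM up to 415 to 1424 CPM, with 5 of 6 called higher (Col1a1, log2 fold change 4.14). Over all genes tested 31.1% were lower and 34.2% higher. The part of these cells in the fall of Cxcl12 was not tested.

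Cxcl14 (ENSMUSG00000021508), Cxcl16 and Cxcl17 were higher with puberulic acid. Cxcl14, an epithelial chemokine, was 14.5, 17.3, 26.9, 30.5 and 26.3 CPM in controls and 39.5, 44.04, 80.3, 77.3 and 101 CPM in treated samples, with no overlap (log2 fold change 1.57 ± 0.28 SE, adjusted p = 0.000402). Cxcl16 (ENSMUSG00000018920), a membrane-bound ligand of Cxcr6 and a scavenger receptor, was 82.6, 32.9, 34.2, 34.4 and 28.2 CPM in controls and 95.8, 94.2, 116, 135 and 112 CPM in treated samples. Control 1 was again the highest control, and it lay below all treated samples. The change was 1.38 ± 0.27 (SE; adjusted p = 0.000694), and 1.76 without control 1. Cxcl17 (ENSMUSG00000060188), a chemokine of mucosal epithelium, was 0.0571, 0, 0.0636, 0.0623 and 0.0649 CPM in controls, each value standing for at most 1 count, and 0.928, 4.17, 2.96, 2.40 and 1.70 CPM in treated samples. Its adjusted p was 6.17e-06, with a log2 fold change of 5.50 ± 0.58 (SE). Cxcl13, which draws B cells, was too low to be tested, at up to 0.779 CPM in controls and 0.445 CPM in treated samples.

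All 6 tested CC chemokines that draw monocytes and macrophages were higher with puberulic acid, with a median log2 fold change of 4.61, beside 34.2% higher over all genes tested. Of the 6 only Ccl6 passed the minimum for testing from the controls alone, so the count supports nothing by itself. Ccl2 (ENSMUSG00000035385), the chief ligand of Ccr2 on inflammatory monocytes, was 0.514, 0.264, 0.446, 0.187 and 0.130 CPM in controls and 16.9, 25.6, 29.1, 55.6 and 29.7 CPM in treated samples. The lowest treated sample was far above the highest control. Its mean went from 0.308 ± 0.166 to 31.4 ± 14.5 CPM (SD, n = 5 a group), a log2 fold change of 6.63 ± 0.41 (SE) with adjusted p = 1.08e-07. Ccl7 (ENSMUSG00000035373), another Ccr2 ligand, had counts of 1, 0, 1, 0 and 0 in the controls and 2.34, 7.88, 10.00, 20.6 and 7.81 CPM in treated samples. The ratio of the groups was 397, with a 95% counting interval of 110 to 3280, and adjusted p was 3.23e-06. Ccl12 (ENSMUSG00000035352), a mouse monocyte chemokine related to Ccl2, was 0.913, 0.105, 0.318, 0 and 0.0649 CPM in controls and 2.15, 4.56, 6.95, 11.9 and 7.17 CPM in treated samples. Control 1 was the highest control for it too, and the change of 4.49 ± 0.71 (SE; adjusted p = 0.000143) became 5.67 without that sample. In all 3 genes treated sample 4 was the highest and treated sample 1 the lowest.

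Ccl5, Ccl6 and Ccl9 followed the same order at their lower end. Ccl5 (ENSMUSG00000035042), a chemokine made by T cells, macrophages and injured tubule, was 2.68, 0.580, 0.827, 0.748 and 0.455 CPM in controls and 7.39, 13.6, 20.1, 16.8 and 20.4 CPM in treated samples (log2 fold change 3.87 ± 0.46 SE, adjusted p = 1.56e-05; 4.56 without control 1). Ccl6 (ENSMUSG00000018927), a Ccr1 ligand of myeloid cells found in rodents, was 2.68, 2.27, 1.91, 3.99 and 3.64 CPM in controls and 8.61, 26.5, 48.8, 47.9 and 26.6 CPM in treated samples (log2 fold change 3.45 ± 0.43 SE, adjusted p = 2.23e-05). Ccl9 (ENSMUSG00000019122), also a rodent ligand of Ccr1, was 0.571, 1.05, 1.72, 1.99 and 1.104 CPM in controls and 12.1, 32.2, 50.6, 44.7 and 31.1 CPM in treated samples (log2 fold change 4.73 ± 0.42 SE, adjusted p = 1.51e-06). None of the 3 overlapped between groups, and treated sample 1 was the lowest treated sample in each. Ccl3, Ccl4 and Ccl8 were too low to be tested: their means were 0.212, 0.239 and 0.117 CPM in controls and 0.600, 1.25 and 0.273 CPM in treated samples. Their ranges overlapped between groups. Ccl4 was called higher when no minimum was set (log2 fold change 2.35, adjusted p = 0.00275).

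Markers of the cells that both make and follow these chemokines moved with them. The summed monocyte and macrophage markers were 175, 104, 129, 246 and 118 CPM in controls 1 to 5 and 256, 523, 782, 896 and 668 CPM in treated samples 1 to 5. Of 12 markers, 9 were higher and 0 lower, beside 34.2% and 31.1% of all genes tested, Cd68 (a lysosomal macrophage protein) by 3.83 and Itgam (CD11b) by 3.78 on the log2 scale. Treated sample 1 was the lowest and treated sample 4 the highest in this sum, as for Ccl2. The part of macrophage number in the chemokine levels was not tested.

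Of 7 ligands of Ccr3, Ccr4, Ccr6 and Ccr8, which draw eosinophils, T helper and regulatory T cells and dendritic cells, 4 were tested and were higher, beside 34.2% of all genes tested. All 4 passed the minimum only through the treated samples. Ccl17 (ENSMUSG00000031780), a Ccr4 ligand of dendritic cells, was 0.114, 0.105, 0.0636, 0.0623 and 0 CPM in controls and 3.08, 13.0, 16.7, 24.4 and 9.32 CPM in treated samples, a log2 fold change of 7.43 ± 0.69 (SE) with adjusted p = 2.14e-06. The other Ccr4 ligand, Ccl22 (ENSMUSG00000031779), was 0.514, 0.316, 0.127, 0.187 and 0.130 CPM in controls and 1.34, 3.92, 4.83, 8.11 and 4.56 CPM in treated samples (4.10 ± 0.52 SE, adjusted p = 2.69e-05). For both genes treated sample 4 was the highest and treated sample 1 the lowest, without overlap with the controls. Ccl11 (ENSMUSG00000020676), or eotaxin, was 0.114, 0, 0.0636, 0.125 and 0.0649 CPM in controls and 1.26, 1.58, 3.52, 4.60 and 2.63 CPM in treated samples (5.13 ± 0.57 SE, adjusted p = 8.72e-06). Ccl20 (ENSMUSG00000026166), the Ccr6 ligand, was 0.285, 0, 0, 0 and 0.130 CPM in controls and 1.71, 4.26, 3.22, 4.16 and 2.67 CPM in treated samples (5.16 ± 0.65 SE, adjusted p = 2.36e-05; 6.46 without control 1). Controls of both genes held 0 to 5 counts each, and every treated sample was above them. Ccl1, a Ccr8 ligand, was at 0 in all controls and at 0.111, 0.213, 1.48, 1.30 and 0.771 CPM in treated samples, at least 4.3-fold above the limit of 3 counts per control library. It was too low to be tested and was called with no minimum (adjusted p = 0.00085). Ccl24 stayed at or under 1.03 CPM in every sample, and Ccl26 was at 0 in all 10. Beside these ligands, 5 of 7 tested dendritic cell markers were higher and 0 lower (Itgax, log2 fold change 3.83), as were 5 of 9 T cell markers, whose sum was 4.48 to 8.85 CPM in controls and 10.4 to 21.3 CPM in treated samples. Over all genes tested 34.2% were higher, and without puberulic acid 1 the T cell count was 3 of 9. The calls of the T cell markers Cd3d, Cd4, Cd8b1 and Trac needed the treated samples to pass the minimum. So did those of the dendritic cell markers Flt3 and Siglech, and these counts support nothing by themselves.

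Of the 6 tested homeostatic CC chemokines, 2 were higher and 4 lower, beside 34.2% and 31.1% of all genes tested. Ccl28 (ENSMUSG00000074715), a mucosal epithelial chemokine for plasma cells, was 17.4, 8.91, 9.36, 7.602 and 2.79 CPM in controls and 15.1, 27.8, 32.0, 24.7 and 25.96 CPM in treated samples. Treated sample 1 lay below control 1, and the change was 1.44 ± 0.36 (SE; adjusted p = 0.00383). Ccl25 (ENSMUSG00000023235), the ligand of Ccr9, was 7.02, 5.01, 4.01, 6.73 and 3.57 CPM in controls and 10.9, 8.52, 8.94, 11.6 and 8.26 CPM in treated samples, and its groups did not overlap (0.87 ± 0.21 SE, adjusted p = 0.00282). It was the smallest rise among the tested chemokine genes. Ccl27a (ENSMUSG00000073888), a skin and epithelial chemokine, was 7.42, 8.86, 9.74, 11.5 and 9.03 CPM in controls and 4.71, 6.09, 6.61, 5.13 and 5.21 CPM in treated samples, with no overlap. Its change of -0.74 ± 0.15 (SE; adjusted p = 0.00114) was -0.24 (adjusted p = 0.197) with scaling to total counts.

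Ccl19 and Ccl21, which guide T cells and dendritic cells through Ccr7, were lower. Ccl19 (ENSMUSG00000071005) was 11.3, 1.69, 4.52, 3.55 and 4.74 CPM in controls and 1.89, 0.894, 2.67, 2.00 and 3.86 CPM in treated samples, with overlap. Its call (-1.18 ± 0.48 SE, adjusted p = 0.0453) did not hold without control 1, when the value was -0.68 (adjusted p = 0.16), and with scaling to total counts it was -0.66 (adjusted p = 0.235). The call also ended without controls 3 or 5 or without any of treated samples 1 to 4. Ccl21a (ENSMUSG00000094686) was 4.45, 3.38, 8.40, 3.86 and 6.04 CPM in controls and 3.90, 0.469, 1.57, 0.815 and 2.38 CPM in treated samples (-1.50 ± 0.48 SE, adjusted p = 0.0161; -0.99 and adjusted p = 0.0836 with scaling to total counts). Ccl21b (ENSMUSG00000095675) was 8.85, 3.74, 7.96, 6.86 and 7.40 CPM in controls and 3.49, 0.511, 0.551, 0 and 0 CPM in treated samples (-2.92 ± 0.90 SE, adjusted p = 0.0127). Treated sample 1 held most of what remained of Ccl21b, and without it the change was -4.78. The transcripts of these 2 genes share 400 of 402 aligned bases (99.5%, GENCODE M21), so the division of counts between them is uncertain. Their sum was 13.3, 7.12, 16.4, 10.7 and 13.4 CPM in controls and 7.39, 0.980, 2.12, 0.815 and 2.38 CPM in treated samples. Treated sample 1 lay just above control 2 in this sum, and the other treated samples lay below all controls. RefSeq lists further copies of Ccl19, Ccl21 and Ccl27a on chromosome 4, so these 4 lower genes are all uncertain as single genes. Lymphatic and lymph node stroma markers showed 1 of 4 higher (Pdpn, log2 fold change 2.30) and 1 lower (Cr2, log2 fold change -1.28), beside 34.2% and 31.1% of all genes tested. With scaling to total counts 2 of the 4 were higher and 0 lower, and without puberulic acid 1 they were 1 higher and 2 lower. The pseudogenes Ccl19-ps1 and Ccl19-ps3 were near 0 or at 0 and were not tested.

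Cx3cl1 (ENSMUSG00000031778), or fractalkine, a membrane-bound chemokine of endothelium and epithelium, was 75.3, 77.3, 79.2, 82.4 and 86.4 CPM in controls and 148, 141, 185, 209 and 235 CPM in treated samples. The controls lay close together, control 1 was their lowest, and all treated samples were above them. The mean went from 80.1 ± 4.34 to 184 ± 39.8 CPM (SD, n = 5 a group), a log2 fold change of 1.20 ± 0.14 (SE) with adjusted p = 1.07e-05. Xcl1, the C chemokine of T and NK cells, reached at most 0.400 CPM in controls and 1.31 CPM in treated samples and was too low to be tested.

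**Figure D3:**
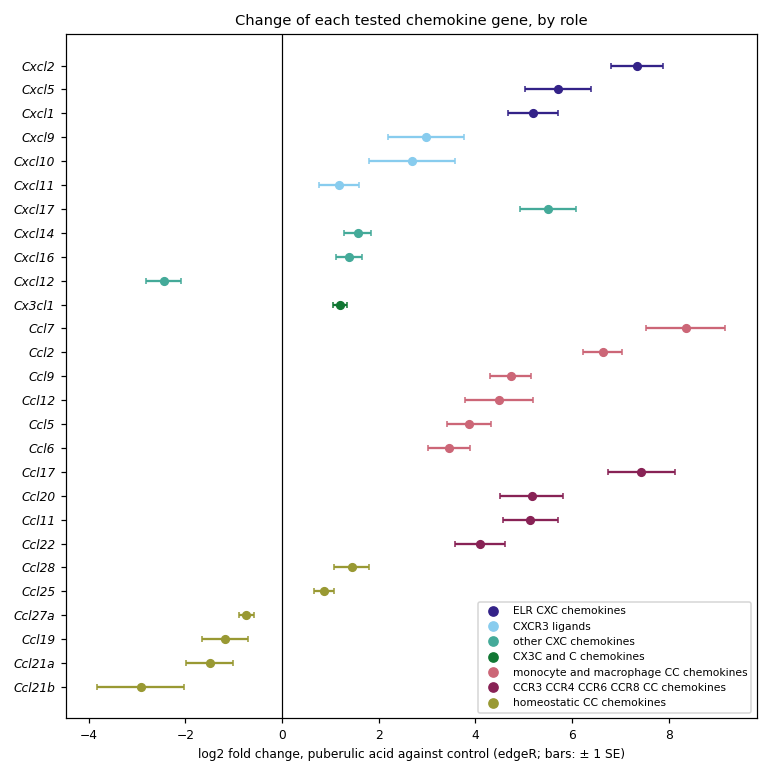
Log2 fold change, puberulic acid against control, of the 27 tested chemokine genes from edgeR, coloured by role, with bars of 1 SE. Cxcl12, Ccl27a, Ccl19, Ccl21a and Ccl21b lie left of 0 and the other 22 lie right of it, and for Cxcl2, Cxcl5 and Ccl7 the position rests on 1 or 2 control counts.

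The treated samples held an order that repeated across genes. Among the 22 chemokine genes called higher, treated sample 1 was the lowest of the 5 treated samples for 17, treated sample 2 for 3 and treated sample 5 for 2. Treated sample 4 was the highest for 12, treated sample 2 for 4, and treated samples 3 and 5 for 3 each. Among the 5 lower genes, treated sample 1 was the highest treated sample for Cxcl12, Ccl21a and Ccl21b, treated sample 5 was the highest for Ccl19, and treated sample 1 was the lowest for Ccl27a. Its kidney tubule and glomerulus markers summed to 6904 CPM, against 3508 to 4457 CPM in treated samples 2 to 5 and 10080 to 12700 CPM in controls. The order was not particular to chemokine genes. Treated sample 1 was the lowest and treated sample 4 the highest also in the interferon-induced sum and in the monocyte and macrophage sum. The T cell and endothelial sums were instead lowest in treated sample 2 and highest in treated sample 5. The share of all genes with each order was not counted. The treated samples are replicates of a dose, and why they differed was not tested.

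Neighbouring chemokine genes, within 5 protein-coding genes of each other in RefSeq's order, are given here by their calls as a description, since 22 of the 27 tested were higher and 14 of those passed the minimum only through the treated samples. On chromosome 11, Ccl2, Ccl7, Ccl11 and Ccl12 were all higher and their neighbours Ccl8 and Ccl1 were not tested. In the other chromosome 11 group, Ccl5, Ccl9 and Ccl6 were higher, and Ccl3 and Ccl4 were not tested. Cxcl1, Cxcl2 and Cxcl5 on chromosome 5 were higher beside the untested Cxcl3 and Cxcl15. Ccl22, Cx3cl1 and Ccl17 form a group on chromosome 8, and all 3 were higher, from 1.20 to 7.43 on the log2 scale. The 4 members tested from chromosome 4 (Ccl27a, Ccl21b, Ccl19 and Ccl21a) were the 4 lower CC genes.

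Among the 22 receptors listed, 13 were tested, 7 were higher, 1 was lower and 5 were not called. The share called is near the 65.3% over all genes tested, where 34.2% were higher and 31.1% lower. Of the 7, Ccr1, Ccr7, Ccr9, Cxcr2 and Cxcr3 passed the minimum for testing only through the treated samples, so the count supports nothing by itself. Of those that passed from the controls alone, Ccr2 and Cx3cr1 were higher, Ackr3 was lower, and Cxcr4, Xcr1 and Ccrl2 were not called. Receptors of monocytes and macrophages are given first (means ± SD over 5 samples a group). Ccr1 went from 0.330 ± 0.325 to 13.7 ± 5.42 CPM (log2 fold change 5.34 ± 0.55 SE, adjusted p = 4.83e-06), and its change was 6.07 without control 1. Ccr2, the Ccl2 and Ccl7 receptor, went from 5.33 ± 4.02 to 45.2 ± 16.1 CPM (3.07 ± 0.44 SE, adjusted p = 6.69e-05). Cx3cr1, the fractalkine receptor of resident and patrolling myeloid cells, went from 4.30 ± 0.962 to 22.7 ± 6.35 CPM (2.40 ± 0.23 SE, adjusted p = 3.1e-06). None of these 3 overlapped between groups. Of the receptors of lymphocytes, dendritic cells and neutrophils, Ccr7, Ccr9, Cxcr2 and Cxcr3 were called higher, whereas Cxcr4, Cxcr6 and Xcr1 were not called. Ccr7 changed by 3.06 ± 0.43 and Ccr9 by 2.16 ± 0.43 on the log2 scale (SE), with adjusted p = 6.35e-05 and 0.000855. Both were low, Ccr7 with a mean of 0.234 CPM in controls and 2.03 CPM in treated samples, and Ccr9 with 0.207 and 0.928 CPM. Cxcr2, the ELR chemokine receptor, went from 0.457 ± 0.0839 to 1.69 ± 0.504 CPM (1.87 ± 0.28 SE, adjusted p = 9.62e-05). Cxcr3 overlapped between groups, and its call (0.99 ± 0.37 SE, adjusted p = 0.034) ended when any of controls 2 to 5 or treated samples 4 or 5 was left out, with adjusted p up to 0.117. Ccr7 was higher while its ligands were called lower, and Ccr9 was higher together with its ligand Ccl25. The calls of Ccl19 and Ccl21a ended with scaling to total counts, and that of Ccl19 also ended without control 1.

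Of the remaining receptors, only Ackr3 was called. Cxcr4, the signalling receptor of Cxcl12, had a fitted log2 difference of 0.55 ± 0.33 (SE; adjusted p = 0.165), Cxcr6, the receptor of Cxcl16, 0.78 ± 0.54 (adjusted p = 0.223), and Xcr1, the receptor of Xcl1, 0.60 ± 0.53 (adjusted p = 0.329). Without control 1, Cxcr6 was called at 1.38 (adjusted p = 0.0348) and Xcr1 at 1.48 (adjusted p = 0.00374). Cxcr4 was called without puberulic acid 1 (0.70, adjusted p = 0.0472) and with scaling to total counts (1.06, adjusted p = 0.0133), as was Cxcr6 with that scaling (1.29, adjusted p = 0.0477). The ranges of all 3 overlapped between groups, and a p above the threshold does not show that the levels were equal. Ackr3, an atypical receptor that takes up Cxcl12, went from 48.4 ± 3.97 to 34.6 ± 3.36 CPM, with no overlap (-0.49 ± 0.09 SE, adjusted p = 0.000497), but with scaling to total counts its value was 0.02 (adjusted p = 0.831). Ackr4 and Ccrl2 were not called (log2 fold changes -0.48 and -0.08). Ccr3, Ccr4, Ccr6, Ccr8, Ccr10, Cxcr1, Cxcr5, Ackr1 and Ackr2 were too low to be tested, so the receptors of Ccl11, Ccl17, Ccl22 and Ccl20 have no test here.

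**Figure D4:**
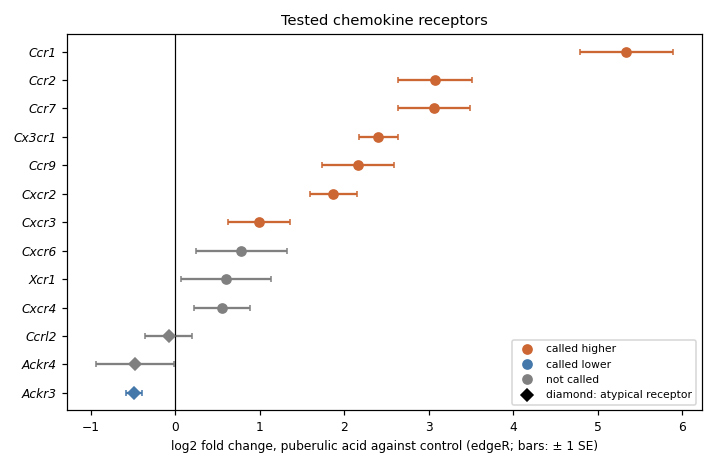
Log2 fold change, puberulic acid against control, of the 13 tested chemokine receptors from edgeR with bars of 1 SE (orange, called higher; blue, called lower; grey, not called; diamonds, atypical receptors). Ccr1 is farthest right at 5.34, and Ackr3 is the only receptor called lower.

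Genes that act before and after the chemokines were counted from lists. Of 15 tested NF-kappaB inducers and regulators, 15 were higher, with a median log2 fold change of 2.36, beside 34.2% higher over all genes tested. Il6 and Il1b passed the minimum for testing only through the treated samples. Il6, an inflammatory cytokine, was at 0 in all controls and had a mean of 2.56 CPM in treated samples, at least 14.2-fold above the limit of 3 counts per control library. Tnfrsf12a, the receptor of the cytokine TWEAK, went from a mean of 16.9 to 277 CPM (4.03 ± 0.15 SE, adjusted p = 2.72e-09). Of 16 genes of chemokine signal transduction, 11 were higher and 0 lower, with a median of 1.05, beside 34.2% higher over all genes tested, and 16 were higher with scaling to total counts. The leading genes were Pik3r5, a regulatory subunit of a leukocyte PI3-kinase (2.34 ± 0.60 SE), and Dock2, which drives leukocyte migration (2.23 ± 0.31 SE). Of 10 genes that process or present chemokines, 5 were higher and 1 lower, with a median of 0.5. These 6 of 10 are near the 65.3% called over all genes tested, and with scaling to total counts 10 were higher and 0 lower. The metalloproteinases Mmp12 (4.10 ± 0.61 SE) and Mmp9 (2.19 ± 0.44 SE), which cut chemokines, led that list. All 3 lists lie beside a median of 0.05 over all genes tested. As for Il6 and Il1b, the calls of Pik3r5, Mmp12 and Mmp9, of the interferon-induced Oas2, Oas3, Mx1 and Mx2, of the dendritic cell markers Flt3 and Siglech, of the T cell markers Cd3d, Cd4, Cd8b1 and Trac, and of the fibroblast marker Lum needed the treated samples to pass the minimum.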

How the data were processed

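Poly(A) RNA of whole kidney was sequenced. The deposited table holds estimated counts per gene for 55822 genes, made by the authors with Salmon 1.10.3 among the tools listed per the submitters' processing notes, which also name fastp 0.22.0 and the build GRCm39 without their order. A symbol was found for 51344 genes, which hold 99.3% of the counts. Columns were assigned to samples by name. Another 10 columns do not name the supplement lot they hold and were not used.

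The estimates were rounded to whole counts. To be tested, genes had to pass edgeR's filterByExpr, about 0.486 CPM (10 counts in the median library) in 5 samples. Libraries were scaled by TMM, and the groups were compared with edgeR 4.0.16 (quasi-likelihood test, R 4.3.3), with Benjamini-Hochberg adjustment over all 16266 genes tested and a threshold of 0.05. Each SE was taken as the size of the log2 change over the root of its F statistic. The scripts were tested on simulated counts. A count of 0 allows up to 3 counts per library, on average 0.18 CPM in controls and 0.117 CPM in puberulic acid samples, and 95% intervals of count ratios are exact; both cover counting error only.

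Members were given in every sample when called with a mean of at least 1 CPM in either group, and Cxcl5, Ccl1 and some low members were added after their values were seen. Of other lists, the called receptors and up to 2 called genes with the largest changes were named. Apart from the 22 receptors listed, 1 receptor gene is not reported here. The members and lists were chosen with earlier results of these data known. Promoter windows came from RefSeq (GRCm38.p6), and 26 of 39 members had one. The alternatives were another scaling (DESeq2's size factors, total counts), other minimums, DESeq2 1.42.0, a replicate block and each sample left out; leaving out both control 1 and puberulic acid 1 was added after seeing the data.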

Additional observations from a re-analysis of the deposited data

Results flagged for a closer look

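In 7 of 54 groups of 5 samples, 1 sample lay so far from the rest that its gap to the nearest, as a share of the whole range, was above 0.71 (Dixon's 95% limit). Chance alone puts about 5% of such groups above it. In 5 of the 7 the sample was control 1, the highest control: the summed interferon-induced genes (gap 0.975 of the range, 2073 CPM), Cxcl10 (0.984, 55.4 CPM), Cxcl16 (0.887, 82.6 CPM), Ccl5 (0.833, 2.68 CPM) and Cxcl9 (0.808, 7.42 CPM). Among treated samples, puberulic acid 1 stood apart for Ccl21b (0.842, 3.49 CPM). For Cxcl17 the sample was control 2, at 0 counts beside single counts in the other controls (0.879).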

How the results depend on the processing

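Of 441 values of named chemokine genes under the alternatives, 424 kept direction and side of the threshold, 17 lost the call and 0 reversed. For 22 of 26 genes every alternative passed, the exceptions being Ccl19, Ccl21a, Ccl27a and Cxcl11. With total counts as the scale, chemokine genes called lower went from 5 to 2 and receptors called lower from 1 to 0. With a minimum of 1 CPM in 5 samples, receptors called higher went from 7 to 4, since fewer genes were tested. Leaving out each sample in turn gave 21 to 24 chemokine genes higher, 4 to 5 lower, 6 to 9 receptors higher and 1 lower, and 10104 to 11108 genes called in all. The replicate block gave 21 chemokine genes higher, 5 lower and 10325 genes in all. Same-numbered samples share only a number: their deviations correlated at -0.036 on average (-0.172 to 0.039). The block ended the calls of Cxcl11 (adjusted p = 0.0763) and Cxcr3 (0.079). With DESeq2, 25 chemokine genes were higher and 5 lower. Genes near the limit of 3 counts per library have changes known only within wide counting error.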

Other observations

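Both platelet chemokines that the symbol rule leaves out were called higher, and both passed the minimum for testing only with the puberulic acid samples. Pf4 (Cxcl4) went from a mean of 0.771 ± 0.213 CPM in controls to 2.61 ± 0.843 CPM with puberulic acid (SD, n = 5 a group), without overlap, and edgeR's quasi-likelihood test gave a log2 fold change of 1.75 (Benjamini-Hochberg adjusted p = 0.000316). Ppbp (Cxcl7) went from 0.512 ± 0.323 to 1.24 ± 0.767 CPM, with overlap, and the same test gave 1.25 (adjusted p = 0.0464). The Ppbp call ended without control 1 (1.16, adjusted p = 0.0914), without puberulic acid 3 (0.84, adjusted p = 0.147), and without any of controls 2, 4 and 5 or puberulic acid 2, 4 and 5 (adjusted p = 0.0504 to 0.105). Of 3 tested B cell markers 0 were called in either direction, and their list summed to 8.12 to 19.7 CPM in controls and 8.65 to 17.2 CPM with puberulic acid. None of 6 NK cell markers was abundant enough to be tested.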
